A study of Mus musculus with 12 samples.

Results

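The 33 genes described here encode the enzymes of sterol synthesis (17 genes), the proteins that regulate it (5 genes), 3 carriers that move sterols, and enzymes of fatty acid synthesis and desaturation (8 genes). They were chosen by gene symbol, each symbol was found in the count table through its Entrez identifier, and all 33 of 33 were among the 13134 genes that passed a filter on low counts, out of 27179 genes in all. The counts come from RNA-seq of cells of ALL101, one primary mouse T-cell acute lymphoblastic leukemia (T-ALL) of genotype Vav-tTA;TRE-GFP-shIkaros. In this model a tetracycline-off transactivator under the Vav promoter, which is active in blood cells, drives a short hairpin RNA against Ikaros (gene Ikzf1) together with GFP. One group was 3 leukemic recipient mice given doxycycline (Dox) for 3 days, which by the labels turns the hairpin off so that the leukemia's own Ikaros returns, and their T-ALL cells were sorted from spleen as GFPmid. The other group was 3 untreated recipient mice, whose cells are labelled GFPhigh. The library names of untreated mice 1 and 2 and of the 3 doxycycline mice carry the word sort, while those of untreated mouse 3 carry INJ in its place, so it is not known here whether its cells were sorted in the same way. All 6 mice carried the hairpin transgene leukemia, and the ages, sex and strain of the recipients are not given in sources used here. None of the samples is a leukemia without the hairpin that received doxycycline, so Ikaros restoration, doxycycline itself and the GFP gate cannot be told apart.

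Cholesterol is built from acetyl-CoA through mevalonate, the isoprenoid farnesyl diphosphate, squalene and lanosterol, and fatty acids are built from cytosolic acetyl-CoA by carboxylation and repeated elongation, then desaturated. Most enzymes of both routes are targets of the SREBP transcription factors, which leave the endoplasmic reticulum with their escort SCAP when membrane sterol is low and are held back by INSIG proteins when it is high. Excess sterol, as oxysterol, activates the LXR receptors, which induce the efflux transporters ABCA1 and ABCG1. Dividing lymphocytes are known to need both routes for new membrane.

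Values are CPM, read counts scaled to a common total with TMM-adjusted library sizes, summed over the 2 sequencing runs of each mouse, and are given in the order of mice 1, 2 and 3 of a group. Log2 fold changes (± SE) were computed as doxycycline minus untreated with edgeR's quasi-likelihood test, and a gene was called at a Benjamini-Hochberg adjusted p under 0.05 over all tested genes. Library totals were 33899095 to 44949303 counts in doxycycline mice and 29904744 to 33063390 in untreated mice, so 1 CPM was 29.9 to 44.9 counts. Ikzf1, the targeted gene (chr11:11684962-11772930, GRCm38), was at 1438, 1523 and 1495 CPM in doxycycline mice and at 153, 149.7 and 159 CPM in untreated mice, in the direction of the labels. Of 8 T-cell marker genes, summed levels were 5024 to 5210.2 CPM in doxycycline mice and 4494 to 4544 CPM in untreated mice. Among these 8, 4 were called higher and 1 lower, with log2 fold changes of -0.45 to 2.24. The B-cell gene Pax5 was at 0 in every mouse, while 1 of 5 tested B-cell markers was called higher (summed levels 253 to 297 CPM in doxycycline mice and 208 to 356 CPM in untreated mice). Summed erythroid markers were at 83.0 to 113 CPM in doxycycline mice and 7.92 to 53.5 CPM in untreated mice, with 4 of 8 tested markers called higher. Among the untreated mice the erythroid sum was 13.7 CPM in mouse 1, 7.92 CPM in mouse 2 and 53.5 CPM in mouse 3, the one with the differing library name. Of the 8 listed stromal and endothelial markers, 4 were tested, with 3 called higher and 1 lower and summed levels of 359.7 to 366 CPM in doxycycline mice and 342 to 413 CPM in untreated mice. Beside these marker counts, 24.8% of all tested genes were called higher and 25.2% lower. The part of these other cells in any lipid gene's difference was not tested. The RNA is from bulk cells, so fewer cells of a type and less RNA per cell cannot be told apart. Doxycycline mouse 2 stood apart in the sterol genes, as described below, and log2 CPM over all tested genes correlated at 0.988 and 0.989 between it and the other doxycycline mice, which correlated at 0.993 with each other. Untreated mouse 3 correlated at 0.985 and 0.988 with the other untreated mice, which correlated at 0.993 with each other.

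Of the 33 genes, 8 were called higher and 8 lower in doxycycline mice, beside 24.8% of all tested genes called higher and 25.2% called lower, so each share was close to that of all tested genes. All 3 doxycycline mice were above all 3 untreated mice for 7 of the 33 genes (30.2% of all tested genes) and below them for 9 (30.9% of all tested genes). The calls were spread unevenly over the roles. In the fatty acid arm 6 of 8 genes fell and 1 rose, in the SREBP system 3 of 5 rose and 1 fell, and among the 17 sterol enzymes 3 rose and 1 fell. The number called higher was 5 without doxycycline mouse 1, 12 without doxycycline mouse 2, 2 without untreated mouse 1 and 5 without untreated mouse 2, and the number called lower was 5 without doxycycline mouse 1. Without untreated mouse 3, 7 were called higher and 6 lower.

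**Figure D1:**
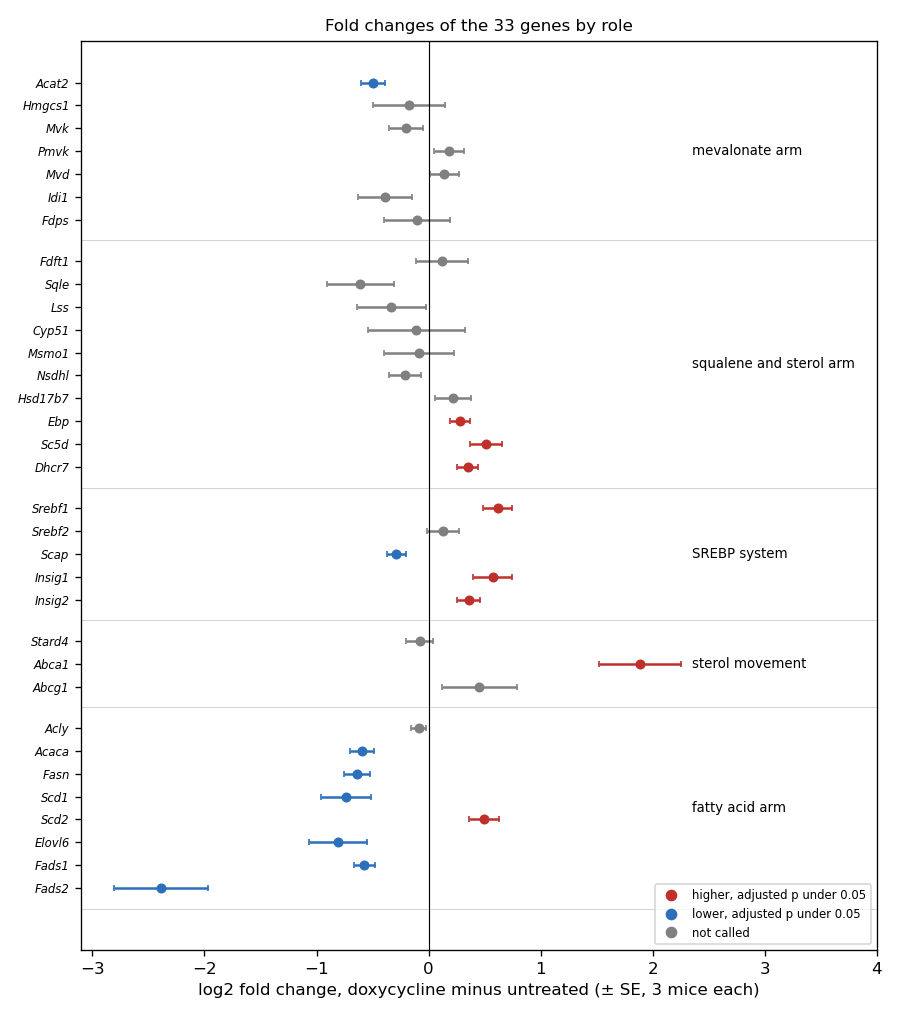
Log2 fold changes of the 33 genes, doxycycline minus untreated, with SE bars (3 mice each), grouped by role and coloured by call. The fatty acid arm lies mostly left of 0, with Fads2 at -2.39, and Abca1 lies farthest to the right at 1.89.

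The fatty acid arm held the largest falls of the 33 genes. Fads2, the delta-6 desaturase that begins the synthesis of long polyunsaturated fatty acids, was at 11.4, 6.59 and 19.9 CPM in doxycycline mice and at 62.1, 78.1 and 57.9 CPM in untreated mice. Every doxycycline mouse lay far below every untreated mouse, and Fads2 fell 5.22-fold, which is -2.39 ± 0.42 on the log2 scale (adjusted p = 0.0069 in edgeR). Fads1, the delta-5 desaturase of the same route, was at 62.8, 52.0 and 63.4 CPM in doxycycline mice and at 82.0, 94.8 and 88.1 CPM in untreated mice. The groups did not overlap and Fads1 fell by 0.57 ± 0.10 on the log2 scale (adjusted p = 0.0017 in edgeR). The relative Fads3, outside the 33 genes and listed with the other fatty acid genes below, lies beside them on chromosome 19 of GRCm38 (mm10) and was at 0.353, 0.333 and 0.276 CPM in doxycycline mice and at 2.31, 2.23 and 1.16 CPM in untreated mice. Its fall of 2.56 ± 0.35 on the log2 scale (adjusted p = 0.00064 in edgeR) rests on 12 to 15 counts per doxycycline mouse. On that build Fads3 spans 10040855 to 10060113, Fads2 10062765 to 10101503 and Fads1 10182877 to 10196874, and all 3 genes of this desaturase cluster were called lower.

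The enzymes that build the saturated chain also fell. Fasn, the fatty acid synthase that makes palmitate (chr11:120805958-120825166), was at 462, 399 and 553 CPM in doxycycline mice and at 744, 685 and 776 CPM in untreated mice, a fall of 0.64 ± 0.12 on the log2 scale (adjusted p = 0.0027 in edgeR). Acaca, the acetyl-CoA carboxylase that commits acetyl-CoA to fatty acid synthesis, was at 64.2, 52.6 and 70.0 CPM in doxycycline mice and at 95.8, 89.5 and 96.7 CPM in untreated mice, a fall of 0.59 ± 0.10 on the log2 scale (adjusted p = 0.0021 in edgeR). In both genes the highest doxycycline mouse was below the lowest untreated mouse. Acly, the ATP citrate lyase that supplies cytosolic acetyl-CoA to both routes, was not called: it was at 477, 494 and 528 CPM in doxycycline mice and at 513, 529.7 and 549 CPM in untreated mice, and the groups overlapped (log2 difference -0.09 ± 0.07, edgeR adjusted p = 0.313). Elovl6, which elongates palmitate to stearate, was at 30.6, 15.9 and 30.8 CPM in doxycycline mice and at 46.8, 49.2 and 39.5 CPM in untreated mice, a fall of 0.81 ± 0.26 on the log2 scale (adjusted p = 0.040 in edgeR). Its groups did not overlap, but the call was lost without doxycycline mouse 1 or without any 1 of the untreated mice (edgeR adjusted p = 0.051 to 0.119), and without doxycycline mouse 2 the fall was 0.54 on the log2 scale (adjusted p = 0.0038 in edgeR). Summed adipocyte and hepatocyte markers, the other cell types known for high fatty acid synthesis, reached at most 0.466 CPM in doxycycline mice and 0.452 CPM in untreated mice, all 8 were under 0.5 CPM in every mouse, and 3 of the 8, among them Lep, were at 0.

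Scd1 (chr19:44394450-44407709) and Scd2 (chr19:44293676-44306864), which encode stearoyl-CoA desaturases that make monounsaturated fatty acids, moved in opposite directions. Scd1 was at 9.11, 8.79 and 11.3 CPM in doxycycline mice and at 12.3, 14.3 and 22.0 CPM in untreated mice, and fell by 0.74 ± 0.22 on the log2 scale (adjusted p = 0.026 in edgeR). The highest doxycycline mouse was just below the lowest untreated mouse, untreated mouse 3 was the highest, and the call was lost without doxycycline mouse 1 or 2 (edgeR adjusted p = 0.085 and 0.092). Without untreated mouse 3 the fall was 0.45 on the log2 scale (adjusted p = 0.043 in edgeR). Scd2 was at 901, 1079 and 904 CPM in doxycycline mice and at 671, 567 and 806 CPM in untreated mice, and rose by 0.50 ± 0.13 on the log2 scale (adjusted p = 0.016 in edgeR), a call lost without untreated mouse 1 (edgeR adjusted p = 0.057). Per length of gene, the level of Scd2 was 87.7, 109 and 71.2 times that of Scd1 in doxycycline mice and 48.5, 35.1 and 32.4 times in untreated mice, so Scd2 made up most of the transcript of the pair in both groups. Of the 50-base stretches in the annotated transcripts, 4.56% of Scd1 and 3.97% of Scd2 also occur in another annotated gene. For Scd2, 2.66% of the stretches occur in Scd1. Scd2 had 18810 to 48602 counts per mouse and Scd1 310 to 662. How reads with several matches were counted is not known here, so the level of Scd1 is uncertain.

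**Figure D2:**
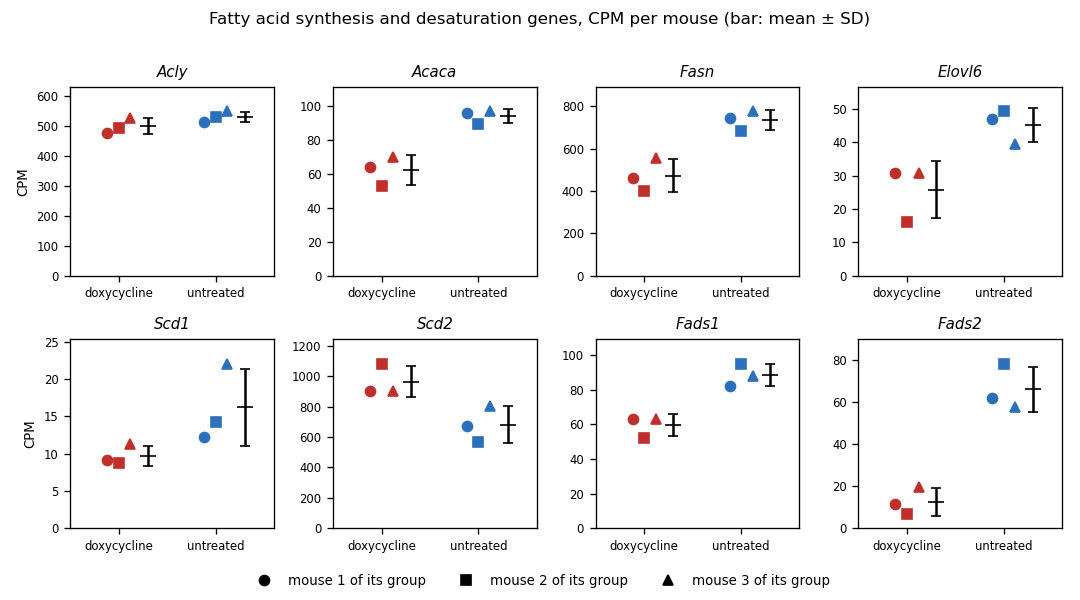
CPM of the 8 fatty acid genes in each mouse (symbols mark mice 1 to 3 of a group, bars mean ± SD of 3 mice, axes start at 0). Doxycycline mice lie below untreated mice in Acaca, Fasn, Elovl6, Scd1, Fads1 and Fads2, and above them in Scd2.

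Over all 6 mice the sterol enzymes gave few calls. Of the 17, 1 fell and 3 rose, fewer in each direction than the 24.8% higher and 25.2% lower among all tested genes. Their median log2 fold change was -0.10 beside -0.0037 over all tested genes. These counts depended on doxycycline mouse 2, which was singled out by its low levels of these same genes, as described below. Without that mouse, 1 of 7 mevalonate genes and 6 of 10 genes of the squalene and sterol arm were called higher. In each arm 1 gene was then called lower, beside 22.2% lower and 23.3% higher of all genes tested in that fit. In the mevalonate arm Acat2, the acetyl-CoA acetyltransferase of its first step, was at 40.5, 32.1 and 42.8 CPM in doxycycline mice and at 56.0, 55.5 and 51.0 CPM in untreated mice. Acat2 fell by 0.50 ± 0.11 on the log2 scale (adjusted p = 0.0064 in edgeR) with no overlap between groups, and its level is uncertain because 39.1% of its 50-base stretches also occur in the neighbouring copy Acat3. The other mevalonate genes, Hmgcs1 (HMG-CoA synthase), Mvk, Pmvk and Mvd (the kinases and the decarboxylase that make isopentenyl diphosphate), Idi1 (its isomerase) and Fdps (farnesyl diphosphate synthase), were not called, with log2 differences of -0.39 to 0.18. None of the 7 was called higher in edgeR at an adjusted or an unadjusted p, in DESeq2 or in limma-voom, all with a count of 0.

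At the end of the route the last 3 steps rose. Ebp, the sterol isomerase, was at 31.2, 33.2 and 36.8 CPM in doxycycline mice and at 28.3, 27.8 and 27.1 CPM in untreated mice, and rose by 0.28 ± 0.09 on the log2 scale (adjusted p = 0.025 in edgeR). Sc5d, the sterol-C5-desaturase (chr9:42251592-42264300), was at 29.9, 19.8 and 24.3 CPM in doxycycline mice and at 16.7, 17.6 and 17.6 CPM in untreated mice, and rose by 0.51 ± 0.14 on the log2 scale (adjusted p = 0.017 in edgeR). Dhcr7, the reductase that makes cholesterol from its 7-dehydro precursor, was at 74.5, 60.7 and 73.5 CPM in doxycycline mice and at 52.3, 57.4 and 53.9 CPM in untreated mice, and rose by 0.35 ± 0.09 on the log2 scale (adjusted p = 0.014 in edgeR). In each of the 3 genes every doxycycline mouse was above every untreated mouse, and each call depended on single mice. The call for Ebp was lost without doxycycline mouse 3 or without any 1 untreated mouse (edgeR adjusted p = 0.062 to 0.084), that for Sc5d without untreated mouse 1 (edgeR adjusted p = 0.063) and that for Dhcr7 without doxycycline mouse 1 or untreated mouse 1 (edgeR adjusted p = 0.051 and 0.056), so that 0 of the 10 genes of this arm were called higher without untreated mouse 1 and 6 without doxycycline mouse 2. The other genes of this arm were Fdft1 (squalene synthase), Sqle (squalene epoxidase), Lss (lanosterol synthase), Cyp51 (the lanosterol demethylase), and Msmo1, Nsdhl and Hsd17b7 (removal of the C4 methyl groups). They were not called, with log2 differences of -0.61 to 0.22. The sterol C14 reductase genes Lbr and Tm7sf2, which act among these middle steps, are outside the 33 genes and are described below. No member of this arm was called lower in edgeR at an adjusted or an unadjusted p, in DESeq2 or in limma-voom (0 in each).

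Doxycycline mouse 2 had low levels across sterol synthesis. Cyp51 was at 86.7, 28.0 and 81.6 CPM in doxycycline mice and at 67.8, 72.7 and 71.0 CPM in untreated mice. Hmgcs1 was at 132, 56.9 and 122 CPM in doxycycline mice and at 109, 122 and 119 CPM in untreated mice. In both genes doxycycline mouse 2 was far below all other mice, while doxycycline mice 1 and 3 were at or above most untreated levels. Sqle was at 81.1, 38.4 and 82.4 CPM in doxycycline mice and at 94.9, 107 and 106 CPM in untreated mice, with no overlap between groups but no call (log2 difference -0.61 ± 0.30, edgeR adjusted p = 0.141). Lss was at 21.0, 10.3 and 24.4 CPM in doxycycline mice and at 20.4, 24.3 and 25.3 CPM in untreated mice. All 17 enzymes were lower in doxycycline mouse 2 than in the mean of doxycycline mice 1 and 3, by 2.19% (Ebp) to 66.7% (Cyp51), with a median ratio of 0.672 beside 0.999 over all tested genes. This mouse was the lowest of the 6 for 14 of the 17 enzymes, beside 23.4% of all tested genes, whereas doxycycline mice 1 and 3 were the lowest for 0 of the 17. Among the 20 ribosome biogenesis genes described further on, all of which fell, it was the lowest for 14. The 14 sterol enzymes include Idi1, Fdps, Msmo1 and Fdft1, which were at 8.68, 11.1, 9.99 and 18.0 CPM in this mouse against 16.1, 23.6, 20.0 and 34.0 CPM in doxycycline mouse 3. No test compares 1 mouse with the rest, and why this mouse differs was not tested.

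Without doxycycline mouse 2, 12 of the 33 genes were called higher and 8 lower, beside 23.3% and 22.2% of all genes tested in that fit. Among the sterol enzymes Pmvk, Fdft1, Cyp51 and Hsd17b7 were then also called higher (log2 fold changes 0.32, 0.37, 0.27 and 0.40, edgeR adjusted p = 0.033, 0.0095, 0.017 and 0.015), and Sqle was called lower (-0.31, edgeR adjusted p = 0.012). Hmgcs1, Fdps, Cyp51, Msmo1 and Stard4, with log2 differences of -0.17, -0.10, -0.11, -0.09 and -0.08 over all mice, had differences of 0.13, 0.19, 0.27, 0.22 and 0.05 without it. The differences of Sc5d, Dhcr7 and Insig1 were 0.66, 0.45 and 0.74 without it. Doxycycline mouse 2 was singled out by its low levels of sterol genes and was the lowest doxycycline mouse for each gene named in this paragraph. Leaving it out therefore had to raise their differences, so the added calls and changes of sign are no independent evidence of a rise.

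**Figure D3:**
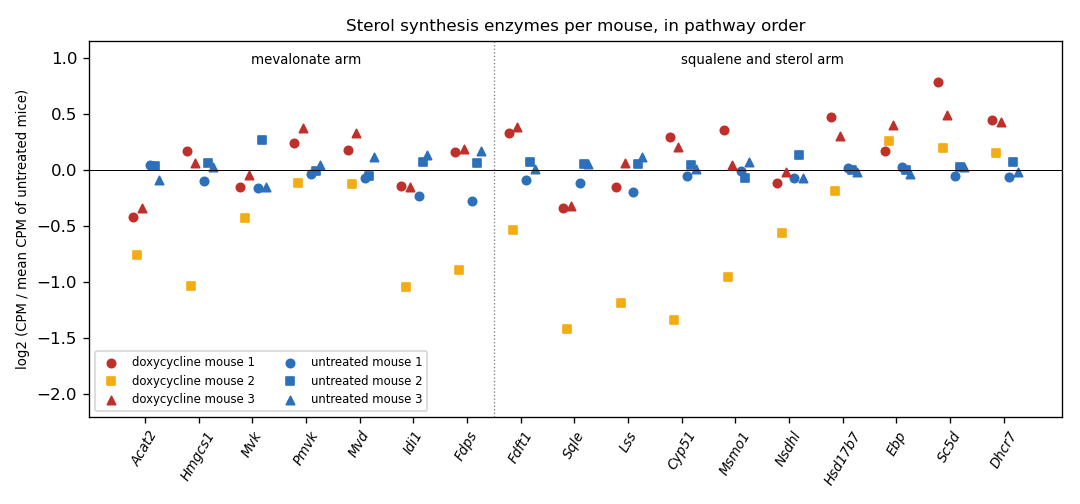
Level of each of the 17 sterol enzymes in each mouse, as log2 of its CPM over the mean CPM of the untreated mice, in pathway order from left to right. Doxycycline mouse 2 (orange squares) is the lowest of the 6 mice in 14 of the 17 genes, and Ebp, Sc5d and Dhcr7 at the right end are above the untreated mice in each doxycycline mouse.

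Promoter sequence is shown for 3 genes, since the sterol genes shared a feature in it that the choice of genes did not use. Windows from 250 bases before to 50 bases after the RefSeq start (GRCm38.p6) were found for 25 of the 33 genes. They were searched on both strands for CCAAT, the core bound by NF-Y, a factor known to act with SREBP on sterol genes, for CACGTG, an E-box that reads alike on both strands, and for TCACNCCAC, a core of the sterol regulatory element. CCAAT was present for 13 of 14 sterol enzymes with a window (92.9%), for 2 of 5 fatty acid genes and for 4 of 5 genes of the SREBP system, beside 41.1% of all 27025 genes with a window. Some genes have several windows, and counted by window it was present in 13 of 17 windows of the sterol enzymes (76.5%) and in 20 of 33 windows of the whole gene set (60.6%), beside 37.4% of all 32851 windows. CACGTG was present for 6 of the 25 genes, beside 8.09% of all genes, and TCACNCCAC for 1, beside 1.44%. Such matches describe letters and show no binding. Below, the 250 bases before the start are printed 5′ to 3′ on the gene's strand with each match in capitals (ATTGG is CCAAT on the opposite strand). Hmgcs1 holds the only TCACNCCAC match of the 25 genes, Sc5d was called higher and holds both a CCAAT and an E-box match, and Fasn was called lower and holds 3 CCAAT matches, of which 2 overlap.
Hmgcs1, chr13:119690101-119690350, plus strand: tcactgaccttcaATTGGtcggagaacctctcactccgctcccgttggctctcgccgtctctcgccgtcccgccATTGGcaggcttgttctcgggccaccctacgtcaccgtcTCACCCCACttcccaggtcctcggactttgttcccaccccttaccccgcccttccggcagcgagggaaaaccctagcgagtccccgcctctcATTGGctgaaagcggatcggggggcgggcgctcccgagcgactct
Sc5d, chr9:42264301-42264550, minus strand: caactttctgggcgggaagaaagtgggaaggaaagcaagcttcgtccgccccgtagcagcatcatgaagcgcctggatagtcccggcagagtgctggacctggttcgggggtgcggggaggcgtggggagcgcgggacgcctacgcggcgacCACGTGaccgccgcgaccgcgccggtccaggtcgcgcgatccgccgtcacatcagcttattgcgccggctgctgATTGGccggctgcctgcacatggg
Fasn, chr11:120824548-120824797, minus strand: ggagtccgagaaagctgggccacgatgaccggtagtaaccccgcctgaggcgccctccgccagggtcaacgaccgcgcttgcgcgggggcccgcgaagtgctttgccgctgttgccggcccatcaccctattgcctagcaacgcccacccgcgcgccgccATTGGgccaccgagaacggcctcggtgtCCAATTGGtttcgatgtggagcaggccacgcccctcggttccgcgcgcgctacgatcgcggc
In Hmgcs1 the TCACNCCAC match lies 137 to 129 bases before the start, with CCAAT matches beginning 237, 176 and 45 bases before it. The RefSeq start used for Fasn lies inside the span given for the gene above, while those of Hmgcs1 and Sc5d lie at the end of theirs. In Sc5d the E-box begins 98 bases and the CCAAT match 24 bases before the start, and in Fasn the CCAAT matches begin 90, 62 and 59 bases before it. Of the genes called lower that had a window, Fasn held CCAAT, while Acat2, Scap, Acaca, Elovl6 and Fads2 did not. Of those called higher, Srebf1, Insig1, Insig2, Ebp, Sc5d and Dhcr7 held it and Abca1 did not. Every gene with a window that was not called held it. Whether CCAAT goes with the direction of change was not tested.

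Genes of the SREBP system mostly rose. Srebf1, which encodes SREBP1, the form best known for fatty acid genes (chr11:60199084-60224186), was at 235, 249 and 258 CPM in doxycycline mice and at 146, 141 and 198 CPM in untreated mice, and rose by 0.62 ± 0.13 on the log2 scale (adjusted p = 0.0054 in edgeR). The groups did not overlap, and gene counts do not separate its isoforms SREBP1a and SREBP1c. Its rise stood beside the falls of Fasn, Acaca, Elovl6, Scd1, Fads1 and Fads2. Srebf2, which encodes SREBP2, the form best known for sterol genes, was at 537, 414 and 602 CPM in doxycycline mice and at 418, 492 and 511 CPM in untreated mice, and was not called (log2 difference 0.13 ± 0.14, edgeR adjusted p = 0.476). Insig1, an INSIG gene that is itself induced by SREBP, was at 52.4, 33.7 and 45.7 CPM in doxycycline mice and at 25.5, 28.8 and 34.4 CPM in untreated mice. Insig1 rose by 0.57 ± 0.18 on the log2 scale (adjusted p = 0.030 in edgeR), although doxycycline mouse 2 was below untreated mouse 3, and the call was lost without doxycycline mouse 1 or 3 or untreated mouse 1 or 2 (edgeR adjusted p = 0.083 to 0.096). Insig2, the second INSIG gene, was at 27.3, 26.0 and 22.5 CPM in doxycycline mice and at 19.9, 18.6 and 20.6 CPM in untreated mice, and rose by 0.36 ± 0.10 on the log2 scale (adjusted p = 0.017 in edgeR), a call lost without doxycycline mouse 1 or untreated mouse 1 or 2 (edgeR adjusted p = 0.051 to 0.082) and in run 1 alone (edgeR adjusted p = 0.057). Scap, the escort, was at 99.2, 119 and 115 CPM in doxycycline mice and at 126, 140.2 and 141 CPM in untreated mice, and fell by 0.29 ± 0.09 on the log2 scale (adjusted p = 0.022 in edgeR), a call lost without doxycycline mouse 1 or untreated mouse 2 or 3 (edgeR adjusted p = 0.058 to 0.076). The number of the 5 genes called higher was 1 without doxycycline mouse 1, untreated mouse 1 or untreated mouse 2. Of the 50-base stretches of Scap, 9.96% also occur on the opposite strand of an overlapping gene, and whether the counting used strand is not known here.

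Of 9 other genes that process SREBP or turn over INSIG, 2 rose and 2 fell. Of all tested genes 24.8% rose and 25.2% fell, so each share was close to that of all tested genes. Rnf145, a ubiquitin ligase of the sterol pathway, was at 213, 215 and 189 CPM in doxycycline mice and at 129.9, 106 and 142 CPM in untreated mice, and rose by 0.71 on the log2 scale (adjusted p = 0.0012 in edgeR). Erlin1, a cholesterol-binding protein of the endoplasmic reticulum, fell by 0.47 on the log2 scale (adjusted p = 0.0071 in edgeR). The number that fell was 1 in run 2 alone, 1 without doxycycline mouse 1 or 3 or untreated mouse 1 or 2, and 3 without doxycycline mouse 2.

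Abca1, the efflux transporter that loads cholesterol onto lipoproteins, had the largest rise of the 33 genes. It lies at chr4:53030789-53159988 and was at 2.59, 5.64 and 2.64 CPM in doxycycline mice and at 1.24, 0.934 and 0.765 CPM in untreated mice, and rose 3.70-fold, which is 1.89 ± 0.37 on the log2 scale (adjusted p = 0.0035 in edgeR). The groups did not overlap. Doxycycline mouse 2, in which sterol enzymes were lowest, had the highest Abca1, and without it the rise was 1.43 on the log2 scale (adjusted p = 0.0040 in edgeR). Abcg1, a second efflux transporter, was at 68.7, 139.6 and 70.7 CPM in doxycycline mice and at 74.4, 53.1 and 76.3 CPM in untreated mice, and was not called (log2 difference 0.45 ± 0.33, edgeR adjusted p = 0.303). Again doxycycline mouse 2 was the highest, and doxycycline mice 1 and 3 lay within the untreated range, with a log2 difference of 0.05 without mouse 2. Stard4, a cytosolic sterol carrier and SREBP target, was at 48.9, 36.9 and 47.2 CPM in doxycycline mice and at 42.8, 46.6 and 51.3 CPM in untreated mice, lowest in doxycycline mouse 2, and was not called (log2 difference -0.08 ± 0.12, edgeR adjusted p = 0.594). Macrophages are known for high ABCA1 and ABCG1. Of 14 myeloid markers, 13 were tested, 9 were called higher and 3 lower, beside 24.8% higher and 25.2% lower of all tested genes. None of the 14 was at 0 in every mouse. The summed level of the myeloid markers was 94.0, 118 and 84.8 CPM in doxycycline mice, highest in mouse 2, and 38.7, 50.1 and 29.5 CPM in untreated mice. Their part in the rise of Abca1 was not tested.

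**Figure D4:**
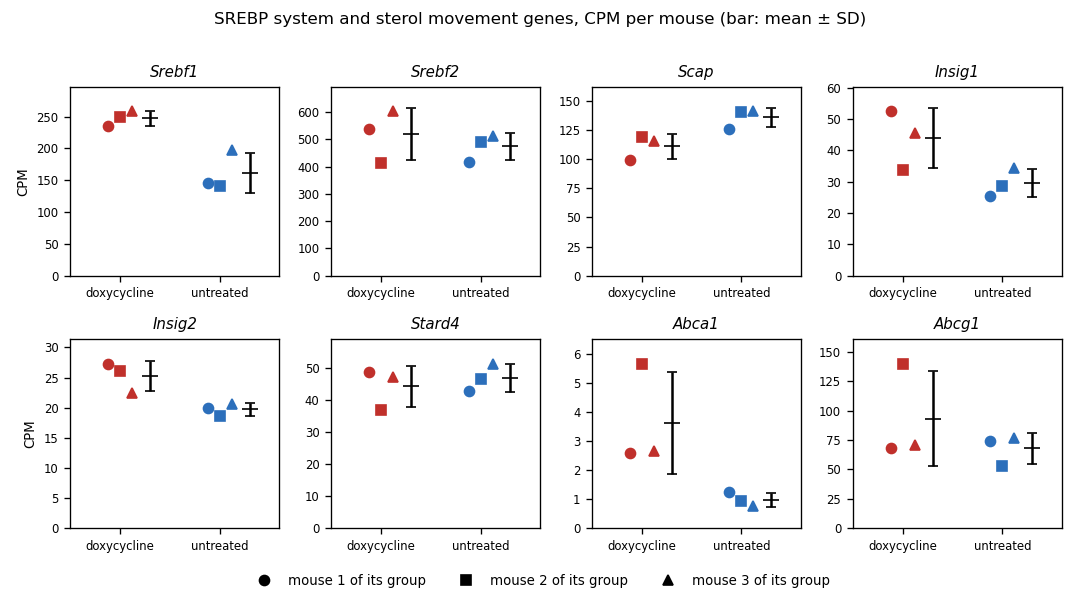
CPM of the 5 SREBP system genes and the 3 sterol movement genes in each mouse (symbols mark mice 1 to 3 of a group, bars mean ± SD of 3 mice, axes start at 0). Srebf1, Insig2 and Abca1 are higher in each doxycycline mouse than in the untreated mice, and doxycycline mouse 2 (squares) is the highest in Abca1 and Abcg1 and the lowest in Srebf2 and Stard4.

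In the list of 14 genes of the LXR receptors, sterol storage and trafficking, 5 rose and 2 fell, beside 24.8% higher and 25.2% lower over all tested genes. Lpcat3, an LXR target that remodels phospholipids, was at 72.6, 85.7 and 71.8 CPM in doxycycline mice and at 44.2, 44.4 and 48.1 CPM in untreated mice, and rose by 0.75 on the log2 scale (adjusted p = 0.00035 in edgeR). Npc2, which carries cholesterol out of lysosomes, rose by 0.44 on the log2 scale (adjusted p = 0.0042 in edgeR). Scarb1, a lipoprotein receptor, was at 39.5, 34.8 and 45.0 CPM in doxycycline mice and at 70.7, 71.4 and 70.6 CPM in untreated mice, and fell by 0.83 on the log2 scale (adjusted p = 0.00032 in edgeR), and Rxra, a partner of LXR, fell by 0.64 on the log2 scale (adjusted p = 0.0020 in edgeR). Doxycycline mouse 2 was the highest of the 6 mice for 6 of these 14 genes, beside 23.7% of all tested genes. Of 9 other genes of sterol synthesis and uptake, 8 were tested, 2 rose and 1 fell. Tmem97, a sterol-regulated membrane protein, fell by 0.82 on the log2 scale (adjusted p = 0.0013 in edgeR). Lbr and Tm7sf2, which encode the sterol C14 reductases, rose by 0.20 and 0.49 on the log2 scale (adjusted p = 0.035 and 0.047 in edgeR). The call for Lbr was lost without any 1 mouse other than doxycycline mouse 2 (edgeR adjusted p = 0.056 to 0.117) and that for Tm7sf2 without any 1 mouse other than doxycycline mouse 2 or untreated mouse 3 (edgeR adjusted p = 0.133 to 0.144), and the number of genes of this list that rose was 4 without doxycycline mouse 2.

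Of 24 other genes of fatty acid synthesis and activation, 19 were tested, with 8 lower and 3 higher, beside 25.2% lower and 24.8% higher over all tested genes. Their median log2 fold change was -0.23, and the number lower was 4 without doxycycline mouse 1, untreated mouse 1 or untreated mouse 2. Besides Fads3, Hacd1, a 3-hydroxyacyl-CoA dehydratase of the elongation cycle, was at 1.71, 2.13 and 2.00 CPM in doxycycline mice and at 6.77, 6.60 and 4.26 CPM in untreated mice, and fell by 1.59 on the log2 scale (adjusted p = 0.00081 in edgeR). Acsl5, an acyl-CoA synthetase, fell by 0.44 on the log2 scale (adjusted p = 0.0021 in edgeR). Acss2, which makes cytosolic acetyl-CoA from acetate, was at 30.2, 39.0 and 29.0 CPM in doxycycline mice and at 16.3, 20.4 and 19.3 CPM in untreated mice, and rose by 0.81 on the log2 scale (adjusted p = 0.0017 in edgeR). In the opposing route, 7 of 20 tested fatty acid oxidation genes fell and 2 rose, with a median of -0.14, beside the same 25.2% lower and 24.8% higher over all tested genes. Acaa2, the mitochondrial thiolase, was at 109, 173 and 132 CPM in doxycycline mice and at 281, 298 and 274 CPM in untreated mice, and fell by 1.04 on the log2 scale (adjusted p = 0.0017 in edgeR). Decr1, the 2,4-dienoyl-CoA reductase needed to oxidise polyunsaturated fatty acids, fell by 1.12 on the log2 scale, and Etfa and Etfb, the subunits of the electron transfer flavoprotein, fell by 0.44 and 0.58 on the log2 scale (adjusted p = 0.0016, 0.0015 and 0.00066 in edgeR).

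The lipid genes were set beside ribosome biogenesis, a growth program. All 20 ribosome biogenesis genes fell, by 0.50 to 1.28 on the log2 scale (median difference -0.76), and 0 rose in edgeR, in DESeq2 or in limma-voom, also at an unadjusted edgeR p. Polr1b, a subunit of RNA polymerase I, was at 58.8, 60.9 and 68.7 CPM in doxycycline mice and at 163, 154 and 142 CPM in untreated mice. The small-subunit processome gene Utp20 fell by 0.81, the large-subunit assembly gene Wdr12 by 0.81 and the nucleolar gene Mybbp1a by 0.86 on the log2 scale (adjusted p = 9.8e-05, 0.00011 and 0.00018 in edgeR). The fatty acid arm had a median of -0.62 with 6 of 8 genes lower, and the sterol enzymes a median of -0.10 with 1 of 17 lower. Of all tested genes 25.2% were called lower and 24.8% higher. Without doxycycline mouse 2, 5 genes of the fatty acid arm were called lower and 1 higher. In the mevalonate arm 1 gene was then lower and 1 higher, and in the squalene and sterol arm 1 was lower and 6 higher. Of all genes tested in that fit 22.2% were called lower and 23.3% higher. These lists were not compared by a test.

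**Figure D5:**
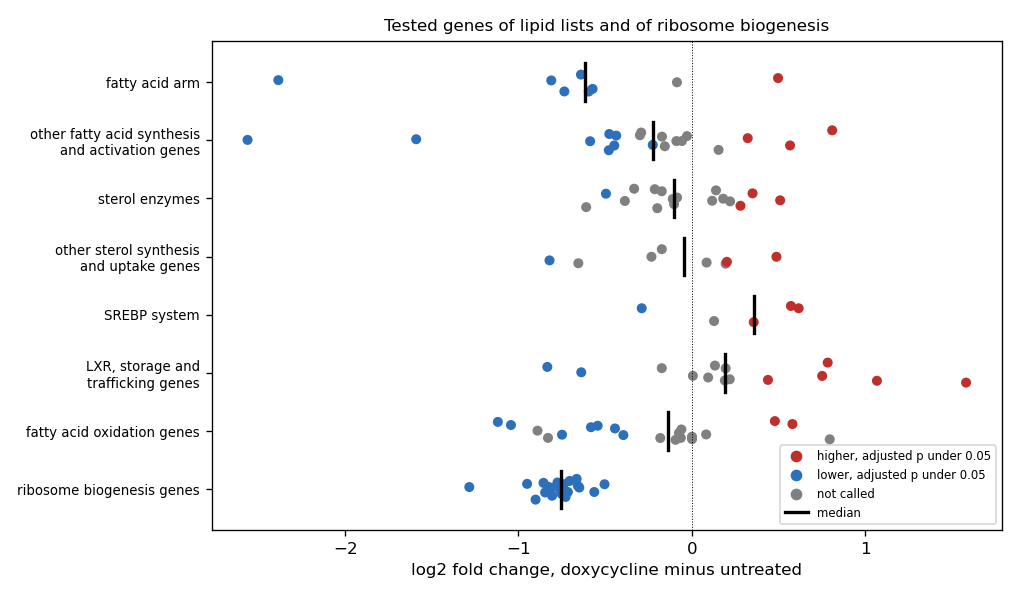
Log2 fold changes of the tested genes in 5 lipid lists, the SREBP system, the fatty acid oxidation list and the ribosome biogenesis list, doxycycline minus untreated, with the median of each as a black bar. The fatty acid arm (median -0.62) lies near ribosome biogenesis (-0.76), while the sterol enzymes (-0.10) spread around 0.

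Levels were ordered per length of gene, as CPM per kilobase. Scd2 was the highest of the 33 genes at 176 in doxycycline mice and 125 in untreated mice, followed in untreated mice by Acly (113 in doxycycline and 119.8 in untreated mice) and Srebf2 (113 and 104). Fasn was at 47.5 in doxycycline mice and 73.9 in untreated mice. Fads2, at rank 5 of 33 in untreated mice with 43.8, was at 8.38 CPM per kilobase in doxycycline mice. Among the sterol enzymes Sqle (24.5 in doxycycline and 37.3 in untreated mice) and Hmgcs1 (31.5 and 35.5) were the highest in untreated mice and Hsd17b7 (3.51 and 3.01) the lowest. Abca1 was the lowest of all, at 0.353 in doxycycline mice and 0.0955 in untreated mice. Lengths are those deposited with the counts.

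Counts of some genes may hold reads of other genes. Of the 50-base stretches in their annotated transcripts, 30.4% of Acaca, 26.5% of Fdft1, 26.2% of Fdps, 25.3% of Idi1 and 11.6% of Hmgcs1 also occur in another annotated gene on either strand, so the levels of these genes are uncertain. The level of Scd1 is also uncertain, because of the stretches that Scd2 shares with it. The share of such stretches was 0% for Fasn, Fads1, Acly, Abca1, Stard4, Insig2 and Ebp and 0.152% for Fads2.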

How the data were processed

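RNA of T-ALL cells was sequenced in 2 runs from 3 doxycycline and 3 untreated mice. The files deposited by the authors hold raw counts by Entrez identifier and a gene length. The tools named are featureCounts and CASAVA 1.8.1, and the build is mm10, per the submitters' processing notes. The aligner, annotation, strand setting and treatment of reads with several matches are not given in sources used here. The whole-series table equalled the per-library tables in 12 of 12 libraries, and 25275 of 27179 identifiers (93.0%) received a RefSeq GRCm38 symbol.

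Runs were summed, so each mouse counts once. At 29.9 to 44.9 counts per CPM, the limit that 3 counts set for a gene at 0 is 0.0667 to 0.10 CPM per mouse (counting error only). The comparison used edgeR 4.0.16 in R 4.3.3 with filterByExpr, TMM scaling and the robust quasi-likelihood F test, adjusted by Benjamini-Hochberg over 13134 genes at 0.05. SE was derived from the log2 fold change and F. An exact permutation test of 3 against 3 mice cannot go below 0.1. Of other lists, up to 4 called genes with the smallest p are named. Of 10 erythroid markers, 2 were not matched. Alternatives covered RLE, upper quartile and plain library-total scaling, no filter or over 1 CPM in 3 mice, limma-voom 3.58.1 (also with quality weights), DESeq2 1.42.0, an edgeR fit without the robust option, run 1 or run 2 only, a block for the replicate number, and leaving out mice. Shared sequence was measured as 50-base stretches of GENCODE M21 transcripts. The members, lists and tests were chosen with earlier results of these data known. Some genes that the lists hold are counted but not named here.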

Additional observations from a re-analysis of the deposited data

How the results depend on the processing

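Over 19 alternatives, the 33 genes gave 627 values, of which 574 kept their direction and side of the threshold, 28 kept the direction but missed it, 11 kept the direction and newly passed it, and 14 changed sign. Acat2, Srebf1, Abca1, Acaca, Fasn, Fads1 and Fads2 were called under each of the 19. With limma-voom and quality weights Msmo1 had a log2 difference of 0.025, and 1 gene of the squalene and sterol arm (Sqle) was called lower. Of the other sterol genes, 0 rose with no filter or with the replicate block, and 1 rose with limma-voom, in run 1 alone and in run 2 alone. Of the genes of SREBP processing, 1 fell in run 2 alone.

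The labels number the mice of each group and state no pairing. Deviations of same-numbered mice from their group means correlated at 0.156, -0.0116 and -0.103. Doxycycline mouse 1 correlated best with untreated mouse 1, and doxycycline mice 2 and 3 with untreated mice of another number. With 3 mice per group these values cannot decide whether mice were paired. With the replicate number as a block, 8 members were higher and 7 lower (the call for Elovl6 was lost, adjusted p = 0.076), as were 3103 and 3156 of all genes, and the counts of calls for the other lists did not change by over 1.5 times except for the other sterol genes.

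Leaving out 1 mouse, or untreated mouse 3 with doxycycline mouse 2, gave 2 to 14 members higher and 5 to 8 lower. By role, 0 to 2 genes were higher in the mevalonate arm, 0 to 6 higher and 0 to 1 lower in the squalene and sterol arm, 1 to 4 higher and 0 to 1 lower in the SREBP system, and 0 to 1 higher in the fatty acid arm, where 4 to 6 were lower. In the other lists, 0 to 4 sterol genes were higher, and 1 to 3 genes of SREBP processing, 4 to 8 of fatty acid synthesis and 6 to 11 of fatty acid oxidation were lower. Log2 differences ranged from -0.38 to 0.14 for Hmgcs1, -0.27 to 0.28 for Fdps, -0.031 to 0.37 for Fdft1, -0.58 to 0.029 for Lss, -0.36 to 0.27 for Cyp51, -0.37 to 0.25 for Msmo1 and -0.15 to 0.11 for Stard4. The cause was not tested. Genes under 1 CPM, such as Fads3, rest on few counts.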
